A study of Rattus norvegicus with 8 samples.

Results

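The ADAMTS proteases were followed in vessels of control and hypertensive rats by their transcripts on oligonucleotide microarrays. The 10 family genes considered were Adamts1, Adamts2, Adamts4, Adamts5, Adamts7, Adamts8, Adamts9, Adamts10, Adamts12 and Adamts15. A probe was assigned to a gene where the transcript accession that the array design gives for the probe belonged to that gene. This found 8 of the 10 genes, with 1 probe each, among 24552 genes and unnamed probes tested. No probe was matched to Adamts2 or Adamts8, which were not analysed here.

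ADAMTS enzymes (a disintegrin and metalloproteinase with thrombospondin motifs) are secreted zinc proteases that are made as inactive precursors, activated largely by furin-like convertases, and act in the extracellular matrix. Several of them cut the large proteoglycans versican and aggrecan, others cut cartilage oligomeric matrix protein or bind fibrillin microfibrils, and others trim procollagen. In the vessel wall, versican and its hyaluronan partner fill the space between smooth muscle cells, and TIMP-3 is the main tissue inhibitor of the versican-cutting members.

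Total RNA of whole vessels came from 4 male control rats and 4 male disease model rats. Each numbered replicate, with 1 array, was taken as a separate rat. Wistar-Kyoto, a strain with normal blood pressure, supplied the controls, and the disease model rats were labelled as having hypertensive disease. The strain entry of the disease model rats also reads Wistar-Kyoto, although the title sets Wistar-Kyoto controls against hypertensive rats, so their strain is not settled. No treatment is listed for either group, and the age of the rats and the vessel taken are not given in the sources used here.

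All 8 arrays lay on 1 slide, with the controls in row 1 and the disease model rats in row 2, so slide row and group cannot be told apart. The column on the slide matched the replicate number in both groups. Levels are log2 signal relative to the 75th percentile of each array, which stood at a processed intensity of 357 to 503. Between 58.7% and 64.1% of probes per array were well above background, and 0 gene spots were saturated. On the second principal component of all genes and unnamed probes tested, disease model replicate 4 stood at -44.6, against -12.0 to 24.9 for the other arrays. Markers of contractile smooth muscle (8 of 8 genes) and endothelium (9 of 9) were well above background. The number of arrays limits the precision of every value.

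Adamts1, a versican-cutting protease that also restrains blood vessel growth, was the only 1 of the 8 measured members that passed the test, and it fell. Its level was 2.26-fold lower in the disease model, and every disease model rat lay below every control. The other 7 members changed by -0.39 to -0.09 on the log2 scale, and their limma adjusted p-values ran from 0.22 to 0.93. Over all 24552 tests, 4.53% passed the same threshold (adjusted p under 0.05), 1.91% lower and 2.61% higher in the disease model. Of the members, 1 of 8 passed lower and 0 of 8 passed higher. All 8 were well above background on all 8 arrays, so no member was lost to the filter on dim probes. In whole tissue, fewer cells of a type and less RNA per cell cannot be told apart.

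The sequence just upstream of the Adamts1 start is shown because Adamts1 is the member whose level differed between the groups. It is the 250 bases before the start of the gene in RefSeq's rat assembly GRCr8, chr11:38427385-38427634, read 5′ to 3′ on the minus strand. Capitals mark a TATA box (TATAAA) and the GC boxes (GGGCGG).
Adamts1: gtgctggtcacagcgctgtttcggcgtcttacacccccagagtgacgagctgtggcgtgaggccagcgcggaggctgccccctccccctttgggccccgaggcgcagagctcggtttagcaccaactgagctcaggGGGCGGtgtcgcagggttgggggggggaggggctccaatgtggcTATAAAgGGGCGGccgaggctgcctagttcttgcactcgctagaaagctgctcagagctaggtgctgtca

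The TATA box started 70 bases before the start of the gene, and the GC boxes started 114 and 63 bases before it, all on the strand of the gene. Both strands were searched. A TATA box letter match was present in 13.1% and a GC box match in 32.4% of 27457 rat promoter windows of the same length. The core of a cAMP response element, TGACG, matched at 208 bases and is in 19.0% of windows. No match was found to the AP-1 element TGANTCA (6.36% of windows), the full cAMP response element TGACGTCA (1.7%, each such match also holding the core), the CArG box (1.5%) or the NF-kB element (6.41%). Such matches describe letters in this window and were not tested as binding sites. Among the 7 members with a promoter entry, Adamts7 and Adamts10 also held TATAAA, on the opposite strand, and the remaining 4 did not.

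In the controls, the Adamts1 level was 4.80, 4.35, 5.14 and 4.11 in replicates 1 to 4. In the disease model it was 3.59, 3.15, 3.38 and 3.57. The lowest control, replicate 4, still lay above the highest disease model rat, replicate 1, and the controls spread more widely than the disease model rats. The means were 4.60 ± 0.46 (SD, n = 4) and 3.42 ± 0.21 (SD, n = 4), a log2 difference of -1.18 ± 0.22 (SE), with a 95% confidence interval of -1.67 to -0.68 and a limma adjusted p of 0.0198. Called genes and unnamed probes lower by at least 2-fold made up 0.717% of all tests.

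Adamts1 was the member with repeat spots, 10 on each array. The SD of those spots within an array was 0.02 to 0.06, far below the SD between rats. The spots of control replicate 4 ran from 4.02 to 4.22, and those of disease model replicate 1 from 3.56 to 3.62. The call rested on few rats, however. The adjusted p was 0.065 without control replicate 1 (log2 difference -1.11), 0.057 without disease model replicate 2 (-1.08) and 0.053 without disease model replicate 3 (-1.16).

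**Figure D1:**
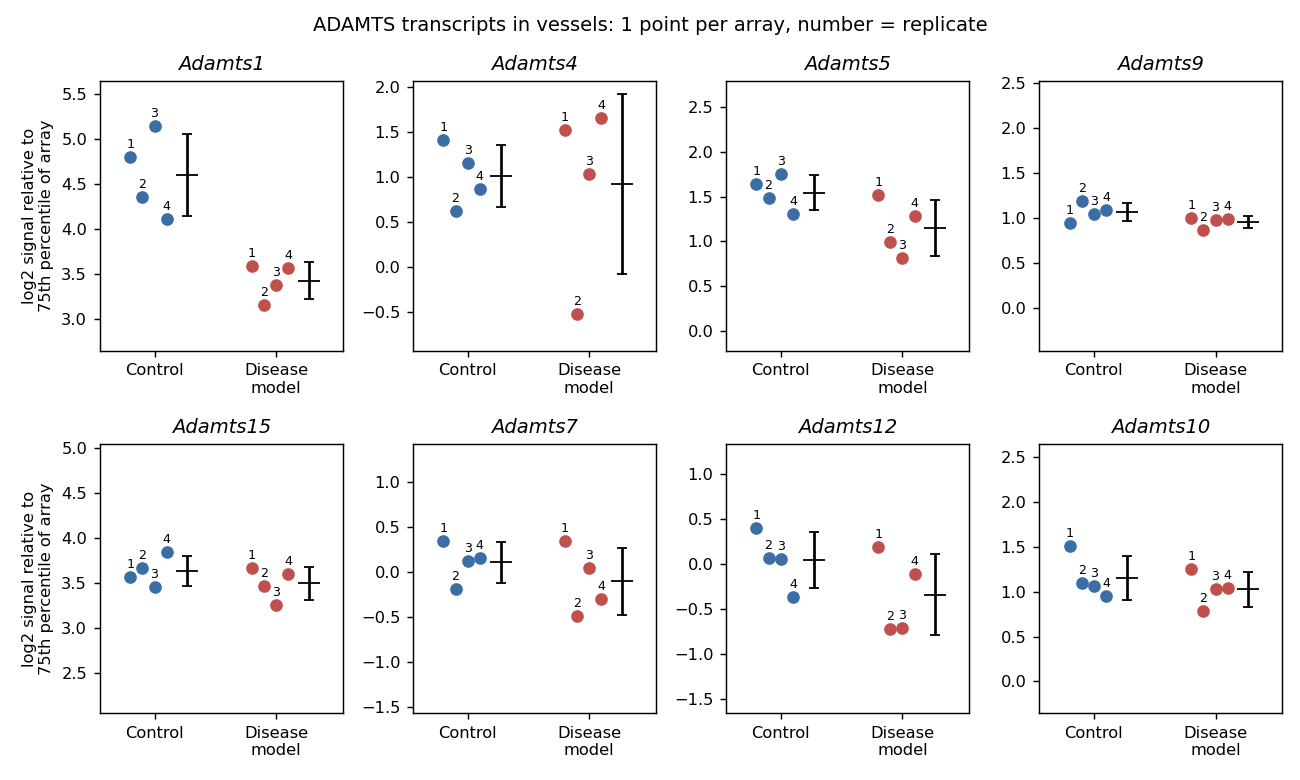
Level of each of the 8 measured ADAMTS genes on every array, as log2 signal relative to the array's 75th percentile, with 1 numbered point per rat and, beside each group, its mean with error bars of 1 SD (n = 4); every panel spans the same log2 range. Adamts1 is the gene whose groups are separate, with controls at 4.11 to 5.14 and disease model rats at 3.15 to 3.59, and Adamts4 shows the widest disease model spread.

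Adamts4 and Adamts5 are the classical aggrecanases, which also cut versican. Adamts4 was at 1.41, 0.62, 1.16 and 0.87 in the controls and at 1.53, -0.52, 1.04 and 1.66 in the disease model. Disease model replicate 2 was the lowest and replicate 4 the highest of all 8 rats, so the disease model group enclosed the controls. The difference was -0.09 ± 0.44 (SE; 95% confidence interval -1.09 to 0.91; limma adjusted p = 0.932). That interval is the widest of the members and would hold a 1.31-fold change, the size seen in Adamts5, in either direction. Without disease model replicate 2 the difference turned to 0.39 ± 0.22 (adjusted p = 0.41), and without control replicate 1 it turned to 0.04.

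Adamts5 had the next largest difference after Adamts1. It was at 1.64, 1.48, 1.75 and 1.31 in the controls and at 1.52, 0.99, 0.82 and 1.28 in the disease model. Disease model replicate 1 lay within the control range, and the other three disease model rats lay below it. The difference was -0.39 ± 0.16, or 1.31-fold lower, with an unadjusted p of 0.042 and a limma adjusted p of 0.224, which missed the threshold. Adamts5 is the next protein-coding gene to Adamts1 on chromosome 11 of the GRCr8 assembly.

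Adamts9 and Adamts15 also cut versican, and Adamts9 is one of the most conserved members. Adamts9 was at 0.94, 1.18, 1.04 and 1.09 in the controls and at 1.0, 0.86, 0.97 and 0.99 in the disease model. It had the smallest standard error of the members, and its difference of -0.11 ± 0.08 (95% confidence interval -0.29 to 0.08) had the narrowest interval of the 8. Adamts15 was at 3.56, 3.66, 3.45 and 3.84 in the controls and at 3.66, 3.46, 3.25 and 3.60 in the disease model. Its groups overlapped between 3.45 and 3.66, and its difference was -0.13 ± 0.12 (95% confidence interval -0.41 to 0.14). The limma adjusted p was 0.509 for Adamts9 and 0.577 for Adamts15.

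Adamts7 and Adamts12 cut cartilage oligomeric matrix protein, and Adamts7 is known for promoting the migration of vascular smooth muscle cells after injury. Adamts7 was at 0.35, -0.19, 0.12 and 0.16 in the controls and at 0.35, -0.49, 0.05 and -0.30 in the disease model. In both groups replicate 1 was highest, and replicate 2 was lowest. The difference was -0.21 ± 0.19 (95% confidence interval -0.64 to 0.22; limma adjusted p = 0.579). Adamts12 was at 0.40, 0.07, 0.06 and -0.36 in the controls and at 0.19, -0.72, -0.71 and -0.11 in the disease model. Disease model replicates 2 and 3 lay below every control, and the other two lay within the control range. Its difference of -0.38 ± 0.24 (95% confidence interval -0.91 to 0.16; limma adjusted p = 0.412) was close in size to that of Adamts5 with a wider error.

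Adamts10 binds fibrillin-1 and takes part in the assembly of microfibrils. It was at 1.51, 1.1, 1.06 and 0.95 in the controls and at 1.25, 0.78, 1.03 and 1.04 in the disease model. Apart from disease model replicate 2, the disease model rats lay within the control range. The difference was -0.13 ± 0.14 (95% confidence interval -0.46 to 0.20; limma adjusted p = 0.654).

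**Figure D2:**
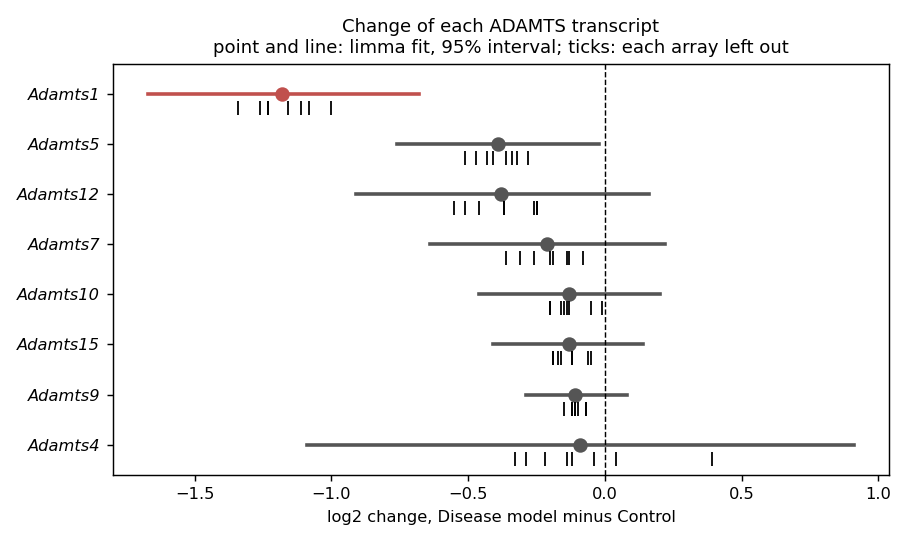
Log2 difference (disease model minus control) of the 8 measured ADAMTS genes, as points with 95% confidence intervals from the limma fit (n = 4 rats per group) and with ticks for the difference on leaving out each rat in turn. The interval of Adamts1 runs from -1.67 to -0.68, the interval of Adamts5 ends just below 0 although its adjusted p is 0.224, and the other 6 intervals include 0.

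All 8 members had a difference below 0, with a median of -0.17, while 42.3% of all tests lay below 0 and the median over all tests was 0.041. With quantile normalization the median over all tests was 0.002, and the median over the members was -0.188. Among the called tests alone, 52.6% were lower in the disease model with quantile normalization, against 42.3% with the 75th percentile. The groups did not overlap in 1 of the 8 members, Adamts1, against 13.6% of all tests (5.78% lower, 7.84% higher). The members share the same 8 arrays, so their directions are not separate observations, and the direction of Adamts4 turned when either 1 of the rats named above was left out.

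Within the disease model group the members tended to deviate together. All 8 lay above their group mean in disease model replicate 1 and below it in replicate 2. Disease model replicate 2 was the lowest of all 8 rats for 6 of the 8 members (Adamts1, Adamts4, Adamts7, Adamts9, Adamts10 and Adamts12), and disease model replicate 3 was the lowest for Adamts5 and Adamts15. Disease model replicate 1 was the highest of its group for 7 of the 8, all but Adamts4. The deviation from the group mean, averaged over the members, was 0.32, -0.38, -0.09 and 0.15 for the disease model rats in replicate order and 0.18, -0.11, 0.08 and -0.15 for the controls. These averages ranged more widely in the disease model. The summed level of 7 fibroblast and adventitia markers was 9.68, 9.02, 8.87 and 9.14 in disease model replicates 1 to 4 and 9.77, 10, 9.49 and 9.25 in the controls. It was highest in replicate 1 within the disease model group, as most members were, but lowest in replicate 3 rather than replicate 2. In the controls it was highest in replicate 2, where the averaged deviation of the members was -0.11. The sum adds signals on the linear scale, so bright genes weigh most in it. In disease model replicates 1 to 4 the marker Col1a1 ran in the order of the sum, at 8.75, 6.99, 6.81 and 7.23. The marker Dcn stayed nearly level there, at 7.56, 7.54, 7.44 and 7.69. The part of these markers in the levels of the members was not tested.

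**Figure D3:**
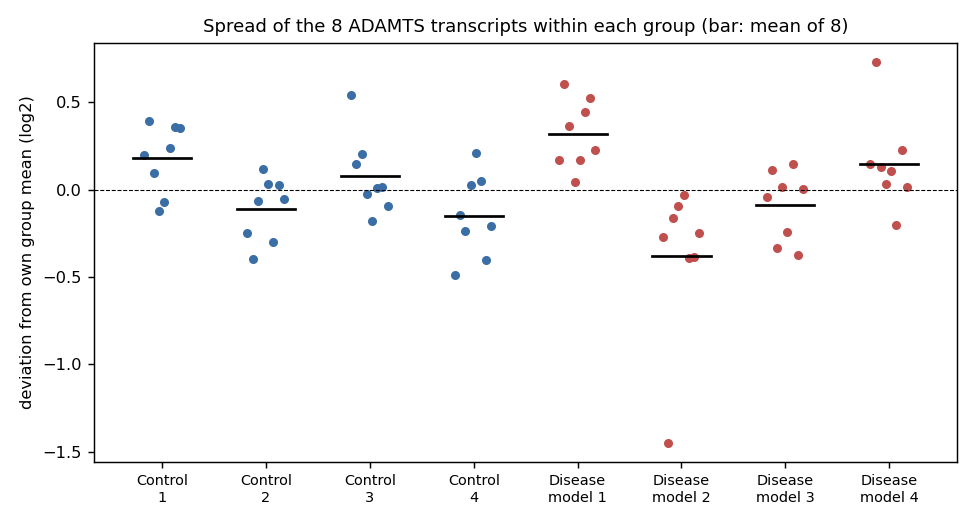
Deviation of each measured ADAMTS gene from the mean of its own group on every array (log2), with 1 small point per gene and a bar for the mean over the 8 genes. Disease model replicate 1 has the highest mean deviation (0.32) and disease model replicate 2 the lowest (-0.38), where Adamts4, at a level of -0.52, is the point farthest from its group mean.

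Whether Adamts1 fell by more than the other members was tested from the difference in level between Adamts1 and each other member within each rat. The change in that difference was -0.78 against Adamts5, -0.80 against Adamts12, -0.97 against Adamts7, -1.04 against Adamts15, -1.05 against Adamts10 and -1.07 against Adamts9. For these 6 the groups did not overlap, and the exact two-sided permutation test gave p = 0.0286, the smallest that 4 against 4 rats allow, or 0.0334 adjusted over the 7 pairs. Against Adamts4 the change was -1.09, the groups overlapped, and the exact permutation p was 0.0857 before and after adjustment. Adamts1 was set against the others because it was already known to have passed on these same arrays. These exact p-values are therefore not separate evidence that it differs from the other members. On these arrays its fall was larger, without overlap, than the change in 6 of the 7 other members. It could not be told from that of Adamts4. With 1 of disease model replicates 1, 3 or 4 left out, 0 of the 7 pairs passed, with an adjusted exact p of 0.0667 for those 6, while their differences ran from -1.11 to -0.68. Leaving out a rat cannot make separate groups overlap, so this p reflects how the remaining rats can be divided.

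Genes related by structure were measured in small numbers. Of 9 other ADAMTS genes listed, 1 had a probe that could be tested, Adamts18. Its level was -4.01, -4.32, -3.94 and -4.07 in the controls and -3.68, -3.58, -3.58 and -3.86 in the disease model, near the dim end of the array. Every disease model rat lay above every control, as in 7.84% of all tests. The difference of 0.41 ± 0.11 missed the threshold (limma adjusted p = 0.0722), so 0 of 1 passed. At an unadjusted p under 0.05 it was 1 of 1, and at least 4574 of all 24552 tests lay under that cut. Adamts18 passed with array weights (0.44) and without disease model replicate 4 (0.47). With normexp background correction its difference shrank to 0.21 and did not pass. Of 7 ADAMTS-like genes, which code for secreted relatives without the protease domain, 2 were tested. Over all tests 1.91% were called lower, and of these 2 genes 1 fell.

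That gene was Adamtsl3. It was at -1.32, -1.62, -1.39 and -1.21 in the controls and at -2.30, -2.19, -2.11 and -1.71 in the disease model, with no overlap. Over all tests, 5.78% were lower without overlap. The difference was -0.69 ± 0.14, or 1.62-fold lower (limma adjusted p = 0.032), and a second probe of the gene gave -0.92 ± 0.27 and did not pass (adjusted p = 0.104). With normexp background correction the difference shrank to -0.41, still past the threshold. The call was lost with the mean of the gene's probes (-0.81; adjusted p = 0.0537), with no filter on dim probes (adjusted p = 0.0796) and on leaving out any 1 of 6 rats, all but control replicate 2 and disease model replicate 4. Adamtsl4, which binds microfibrils, stood at 0.10 ± 0.12 (adjusted p = 0.682).

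Of 20 genes for ADAMTS substrates and binding partners, 18 were tested and 0 passed with limma, with 8 at an unadjusted p under 0.05. At least 4574 of all 24552 tests lay under that cut, the rank by p of Adamts5 (0.042). The median difference of the 18 substrate genes was -0.22, and their range was -1.29 to 0.77. The smallest p-values belonged to Nid2, which codes for the basement membrane protein nidogen-2, and to Fmod, which codes for the collagen-binding proteoglycan fibromodulin. Nid2 was at 0.64, 0.48, 0.33 and 0.38 in the controls and at 0.06, 0.01, 0.06 and 0.25 in the disease model, a difference of -0.36 ± 0.10 (adjusted p = 0.0738). Fmod differed by -0.60 ± 0.16 (adjusted p = 0.0744). In both genes every disease model rat lay below every control, as in 5.78% of all tests. The best known vascular substrate, versican (Vcan, named after its values were seen), was at -1.57 to -0.82 in the controls and -1.72 to -0.87 in the disease model, a difference of -0.17 ± 0.22 (adjusted p = 0.71). Acan, the gene of the cartilage proteoglycan aggrecan, did not rise well above background on any array.

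Of 14 genes for inhibition, clearance and activation of the enzymes, 12 were tested and 0 passed with limma. Their median difference was -0.06. At an unadjusted p under 0.05 there were 2 of the 12, and at least 4574 of all 24552 tests lay under that cut. The 2 genes were Lrp1, the endocytic receptor that clears several ADAMTS enzymes (-0.28 ± 0.11; adjusted p = 0.182), and Pcsk6, a furin-like convertase (-0.25 ± 0.10; adjusted p = 0.23). Timp3, which codes for the inhibitor TIMP-3 and was named after its values were seen, stood at 0.11 ± 0.12 (adjusted p = 0.643). Among 6 tested membrane ADAM proteases, of 10 listed, 0 passed with limma and 1 was at an unadjusted p under 0.05, Adam19 (-0.31 ± 0.13; adjusted p = 0.208). The next by p was Adam9 (-0.13 ± 0.11; adjusted p = 0.546). The median over these 6 was -0.07.

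Of 10 hyaluronan and versican matrix genes, 8 were tested, 1 rose and 0 fell, with a median of 0.08. The shares over all tests were 2.61% higher and 1.91% lower. Cd44, the hyaluronan receptor, was at 2.26, 2.07, 2.16 and 2.22 in the controls and at 2.60, 2.49, 2.43 and 2.53 in the disease model. Every disease model rat lay above every control, as in 7.84% of all tests, and the difference was 0.34 ± 0.08 (limma adjusted p = 0.0496). The other probes of Cd44 gave 0.17 and -0.11, and the call was lost on leaving out any 1 of the 8 rats.

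Adamts1 is itself known as a gene that is switched on fast by inflammatory signals and by other stimuli. Of 13 tested inducers of ADAMTS genes and their receptors, of 14 listed, 2 fell and 0 rose, with a median of -0.06. The shares over all tests were 1.91% lower and 2.61% higher. Il1b, which codes for the inflammatory cytokine interleukin-1 beta, was at 2.06, 1.46, 2.39 and 1.95 in the controls and at 0.64, 0.41, 0.19 and 0.65 in the disease model. The groups lay far apart, and the difference was -1.49 ± 0.20 (limma adjusted p = 0.0038). Angpt2, which codes for the endothelial ligand angiopoietin-2, fell by 0.53 ± 0.10 (adjusted p = 0.0208), a call lost on leaving out any 1 of 6 rats.

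Of 26 early response genes, which are transcribed within minutes of a stimulus, 25 were tested, 14 fell and 0 rose, with a median of -0.92. Over all tests, 1.91% were called lower and 2.61% higher, and the median was 0.041. The smallest p-values belonged to Dusp1, a phosphatase of MAP kinases (-1.83 ± 0.21; adjusted p = 0.00198), and to the AP-1 subunit genes Fos (-1.81 ± 0.29; adjusted p = 0.00945) and Jun (-1.19 ± 0.19; adjusted p = 0.00947). Next were Klf4 (-0.77), Btg2 (-1.72) and Fosb (-2.85). The call of Btg2 was lost without control replicate 1 (adjusted p = 0.0502), and that of Fosb without control replicate 1, control replicate 3 or disease model replicate 2 (adjusted p = 0.0521 to 0.0642). The mean level over all 26 was 2.39, 2.08, 2.86 and 2.09 in the controls and 1.54, 1.55, 1.12 and 1.07 in the disease model. Within the controls, replicate 3 was highest and replicate 1 next, as for Adamts1. Within the disease model the order differed, with Adamts1 lowest in replicate 2 and the early response mean lowest in replicate 4. With control replicate 1 left out, 4 early response genes fell, with control replicate 3 left out 7, and with disease model replicate 3 left out 6. Their part in the Adamts1 result was not tested.

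The 5 named genes whose centred levels over the 8 arrays lay nearest to those of Adamts1 were Plk3, Csrnp1, Nfe2l3, Ccl2 and Tagap, out of 11778 genes. The measure was the root mean square difference, 0.19 for Plk3, 0.22 for Csrnp1 and Nfe2l3, and 0.23 for Ccl2 and Tagap, against a median of 0.69 over all genes. Plk3 codes for a stress-responsive kinase, Ccl2 for a chemokine that attracts monocytes, and Csrnp1 and Nfe2l3 for transcription factors. The difference between the groups was -0.96 for Plk3, -1.02 for Csrnp1, -1.13 for Nfe2l3, -1.19 for Ccl2 and -0.99 for Tagap. These differences are a description, with no test, because the genes were chosen for their likeness to Adamts1 on the same 8 arrays. With normexp background correction the difference shrank to -0.64 for Nfe2l3 and -0.52 for Tagap.

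**Figure D4:**
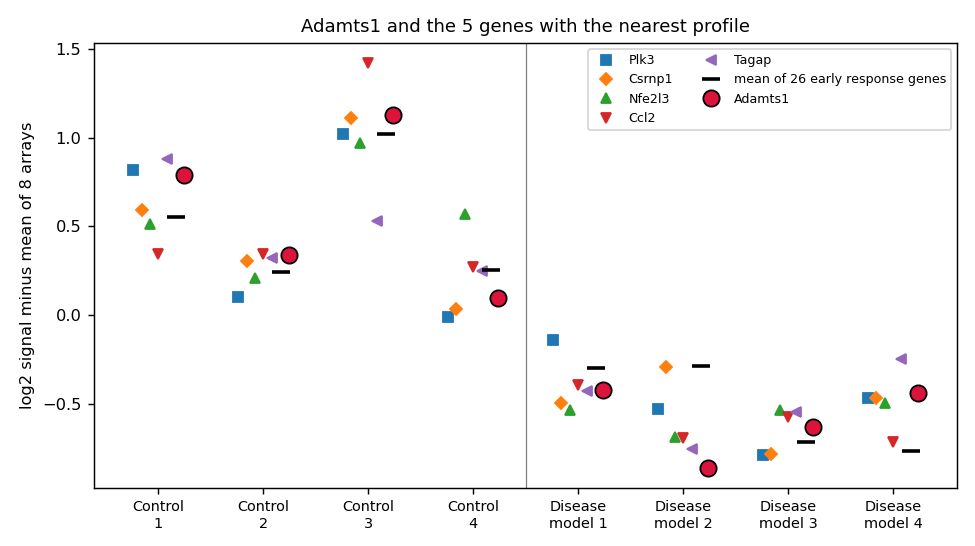
Level of Adamts1, of the 5 genes nearest to it and of the mean of 26 early response genes on every array, each minus its own mean over the 8 arrays (log2). Every plotted control level except that of Plk3 in replicate 4 is above the gene's mean and every disease model level is below it, and control replicate 3 is the highest control for Adamts1, at a level of 5.14.

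Of the cell type markers, 3 passed the limma threshold. Mrc1, 1 of 8 tested macrophage markers, was lower in the disease model. Myh1 (1 of 5 tested skeletal muscle markers) and Epb42 (1 of 5 tested erythroid markers) were higher. No marker of the other lists passed, while 4.53% of all tests did. The values that follow are summed levels over each list, added on the linear scale so that bright genes weigh most. They carry no test, and their part in the ADAMTS results was not tested. Mast cell markers (7 of 7 well above background) ran from 2.10 to 2.86 in the controls and from 2.87 to 3.78 in the disease model. Nerve and Schwann cell markers (6 of 9, with Dbh, Nefl and Nefm on no array) ran from 2.47 to 2.65 and from 2.71 to 3.19, so that both lists lay higher in every disease model rat than in every control. Lymphocyte markers (6 of 6) ran from 2.03 to 2.47 and from 1.37 to 2.03. White adipocyte markers (8 of 8) ran from 2.30 to 3.19 and from 2.34 to 4.84, the highest value belonging to disease model replicate 4. Macrophage markers (8 of 8) ran from 6.61 to 6.94 and from 6.83 to 7.39, opposite in direction to Mrc1. Erythroid markers (5 of 5) ran from 4.21 to 5.09 and from 3.76 to 5.57, brown adipocyte markers (5 of 6, Elovl3 on no array) from 1.34 to 1.61 and from 0.60 to 1.77, and skeletal muscle markers (7 of 7) from 0.59 to 0.85 and from 0.57 to 1.29. Smooth muscle markers, at 8.20 to 8.65 in the controls and 8.30 to 8.82 in the disease model, and endothelial markers, at 7.20 to 7.38 and 7.32 to 7.57, overlapped between the groups. In cartilage and bone markers 4 of 7 were detected, and Acan, Cnmd and Ibsp were not. Their summed level was 0.24 to 0.43 in the controls and 0.15 to 0.68 in the disease model.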

How the data were processed

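Per the labels' protocols, 100 ng of Trizol-extracted RNA was labelled with Cy3 and hybridised to a 1-colour Agilent array. Per the file headers, the scanner files hold spot intensity after background subtraction and processing by Agilent Feature Extraction (version 10.7.1.1 there, 12.1.1.1 in the submitters' processing notes). The deposited value table is a linear ratio, equal to that intensity over a constant of 0.995 to 0.997 times the 75th percentile of the array, with 0 probes above 1 off by 5%. Its column medians were 0.086 to 0.101. It is neither centred nor signed.

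Flagged spots (213 to 396 per array) were left out only where another spot of the same probe remained. Spots were averaged per probe as log2, and the 75th percentile was subtracted. Probes well above background on at least 3 of 4 arrays of a group were kept (27822 of 45598). Accessions without version were matched to RefSeq genes of GRCr8 (21229 probes, 46.6%), and the brightest kept probe stood for a gene, giving 11965 genes and 12587 unnamed probes. limma 3.58.1 in R 4.3.3 (lmFit, eBayes) was fitted on all 24552, p-values were adjusted by Benjamini-Hochberg (threshold 0.05), and the script was tested on simulated data. Replicates were taken as separate rats from their numbers in the sample titles.

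The members and gene lists were chosen with earlier results of these data known. Besides the members, the text names up to 6 genes past the threshold per list, or the 2 with the smallest p where none passed, and the 5 genes nearest to a member past the threshold. Normexp used the median spot signal in place of the mean (offset 50).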

Additional observations from a re-analysis of the deposited data

Results flagged for a closer look

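In 3 of the 84 sets of 4 arrays examined, 1 rat lay far from the other three, and chance alone gives about 1 in 20. The Ccl2 level of control replicate 3 was 4.82, against 3.67 to 3.74 in the other controls. The Klf4 level of disease model replicate 4 was 4.42, against 4.08 to 4.13 in the others of its group. The summed level of lymphocyte markers in disease model replicate 4 was 2.03, against 1.37 to 1.46. No ADAMTS gene stood apart in this way.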

How the results depend on the processing

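Over the 19 alternatives run, the Adamts1 difference ran from -1.34 to -1.0 and its adjusted p from 0.0044 to 0.065. Besides the 3 omissions named above, it missed the threshold with the replicate number as a block (-1.18 ± 0.20, adjusted p = 0.051). With the block 0 members passed, and 675 genes and unnamed probes in all, against 1111. Of the 1111, 254 were named genes called higher and 246 were named genes called lower. The replicate numbers share no litter or batch in the labels, but they match the column on the slide, so the block also stands for slide column. The correlations of same-numbered deviations were 0.21, 0.12, 0.00 and -0.15, and the numbers were not taken to pair the rats. The part of slide column in the Adamts1 result was not tested. The other 7 members passed the threshold under none of the alternatives. Adamts4 reversed to 0.04 without control replicate 1 and 0.39 without disease model replicate 2, within a range of -0.33 to 0.39 on leaving out 1 rat, and no other member reversed. Ranges were -0.51 to -0.28 for Adamts5, -0.55 to -0.25 for Adamts12 and -0.20 to -0.01 for Adamts10. Genes and unnamed probes changed numbered 1857 with normexp and 641 with no filter on dim probes. Leaving out 1 rat gave 629 to 1473 genes and unnamed probes changed, 0 to 1 members changed and 0 to 6 pairs past the threshold. Substrate genes called numbered 1 higher and 2 lower with normexp, 2 lower with a variance trend and with array weights, 1 higher without disease model replicate 3, and 1 higher and 1 lower without replicate 4. Early response genes that fell numbered 3 with the block, which ended the calls of Klf4, Btg2 and Fosb, and 19 with normexp. The cause was not tested.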
